A study of Drosophila montana with 12 samples.

Results

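The comparison described here is that of nondiapausing *Drosophila montana* females kept at the critical day length (CDL) with nondiapausing females kept under LD 22:2 (22 h light, 2 h dark). It uses 6 of the 12 libraries of the series, 3 from each light cycle, chosen by their labels, and all 31233 contigs of the transcriptome were tested. The study asked how gene expression in females of this northern species differs between day lengths, within the diapausing and within the nondiapausing state. Every library was made from polyA RNA of a pool of 10 whole females, 21 d after eclosion. The 3 CDL libraries came from the isofemale lines 175OJ8, 265OJ8, and 3OL8, 1 library from each line. The 3 LD 22:2 libraries (replicates 1, 2, and 3) all came from line 175OJ8. An isofemale line descends from a single wild female, so each line is a narrow sample of the population. In 2 of the 3 CDL libraries line and light cycle therefore change together, and their effects cannot be told apart there. Only the 175OJ8 CDL library can be set against LD 22:2 within a line. The labels give the CDL cycle as 17.5 h light and 5.5 h dark, which does not add up to a day of 24 h, whereas the methods of the study give 18.5 h light. The other 6 libraries, diapausing females at the CDL (the same lines) and at LD 16:8 (line 175OJ8), shared the model and are used below only to follow the same contigs. The labels do not say whether replicates came from separate cultures, so the *P* values measure the spread between these pools.

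Females of *D. montana* that eclose under long days develop mature ovaries, whereas those that eclose under short days enter reproductive diapause, in which yolk deposition stops and storage proteins and fat accumulate. The CDL is the day length at which the population divides between these fates, so nondiapausing females at the CDL have received a shorter day than LD 22:2 females but have reached the same ovarian state, which the study scored by dissection. Gene symbols are those of *D. melanogaster* orthologs in the tables of the study, and the roles given are known from that species. A contig outside those tables is given by its number only. No sequence of a contig was used here.

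The 6 libraries held from 2986505 (3OL8 at the CDL) to 6637623 (LD 22:2 replicate 3) counted reads, and the next lowest total was 5161909. The median contig had 27 to 59 reads. Levels below are normalized counts in counts scaled to a common library size (CPM) after TMM scaling, which corrects library size for composition, and they are not divided by contig length. In pools of whole flies, fewer cells of a type and less RNA per cell cannot be told apart. *Yp2* and *Yp3* encode yolk proteins taken up by growing oocytes. *Yp2* stood at 453, 442, and 388 CPM in the 175OJ8, 265OJ8, and 3OL8 CDL libraries and at 258, 366, and 389 CPM in the LD 22:2 libraries. *Yp3* stood at 1493, 1033, and 931 CPM at the CDL and at 848, 985, and 1233 CPM at LD 22:2. The 2 light cycles overlapped in both yolk genes, with log2 fold changes (CDL minus LD 22:2) of 0.34 ± 0.35 and 0.17 ± 0.35 (SE), and in diapausing libraries *Yp2* was between 23.5 and 124 CPM. Every nondiapausing pool was above every diapausing pool in both.

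The likelihood ratio test of edgeR, which the study used, called 70 contigs differentially expressed (DE) at an FDR of 0.05, with 25 higher and 45 lower at the CDL. These were 0.224% of all contigs, and 1742 had an unadjusted *P* below 0.05. The quasi-likelihood test of edgeR, which allows for uncertainty in the dispersion of each contig, called 1 contig, or 0.0032% of all, and gave 1724 unadjusted *P* values below 0.05. The median log2 fold change over all contigs was 0.00 and the median size was 0.20. The number of DE contigs fell to 17 without the 265OJ8 library, 34 without the 3OL8 library, and 35, 44, and 36 without LD 22:2 replicates 1, 2, and 3, and it was 66 without the 175OJ8 CDL library. The balance of direction turned when any CDL library was left out. Contigs higher at the CDL were 41 of the 66 without 175OJ8, 11 of the 17 without 265OJ8, and 23 of the 34 without 3OL8. They were 3 of the 35, 3 of the 44, and 6 of the 36 without LD 22:2 replicates 1, 2, and 3. A contig was set aside as a single-library contig where 1 of the 6 libraries held it at 5 or more times the level of each remaining library. There were 100 such contigs, of which 38 were among the 70, which left 32 DE contigs.

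The 38 single-library contigs had a median size of log2 fold change of 5.18, against 1.52 in the other 32, and each rested on a single pool of flies. Their highest level was between 7.22 and 507 times the next highest, with a median of 78.0 times, and in all 38 the highest library also had more reads than any of the 6 diapausing libraries. The contig of *Lrrk*, a leucine-rich repeat kinase, had 10810 reads in LD 22:2 replicate 2 and between 8 and 26 in the other 5. The contig of *asun*, a regulator of dynein in the germ line, had 18825 reads in LD 22:2 replicate 3 and between 40 and 50 elsewhere. That of *plexB*, an axon guidance receptor, had 17371 reads in the 3OL8 CDL library, which was 0.582% of that library, and between 143 and 228 elsewhere. *HBS1*, a factor that frees stalled ribosomes, had 10071 reads in the 265OJ8 CDL library and 19 to 45 elsewhere. *Dichaete*, a Sox transcription factor of the nervous system, had 5947 reads in LD 22:2 replicate 1 and 8 to 17 elsewhere, and *Ih*, a cation channel, had 5568 in LD 22:2 replicate 3 and 17 to 24 elsewhere. The reads of each of these genes were thus high in 1 pool and level over the remaining pools of both light cycles.

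**Figure D1:**
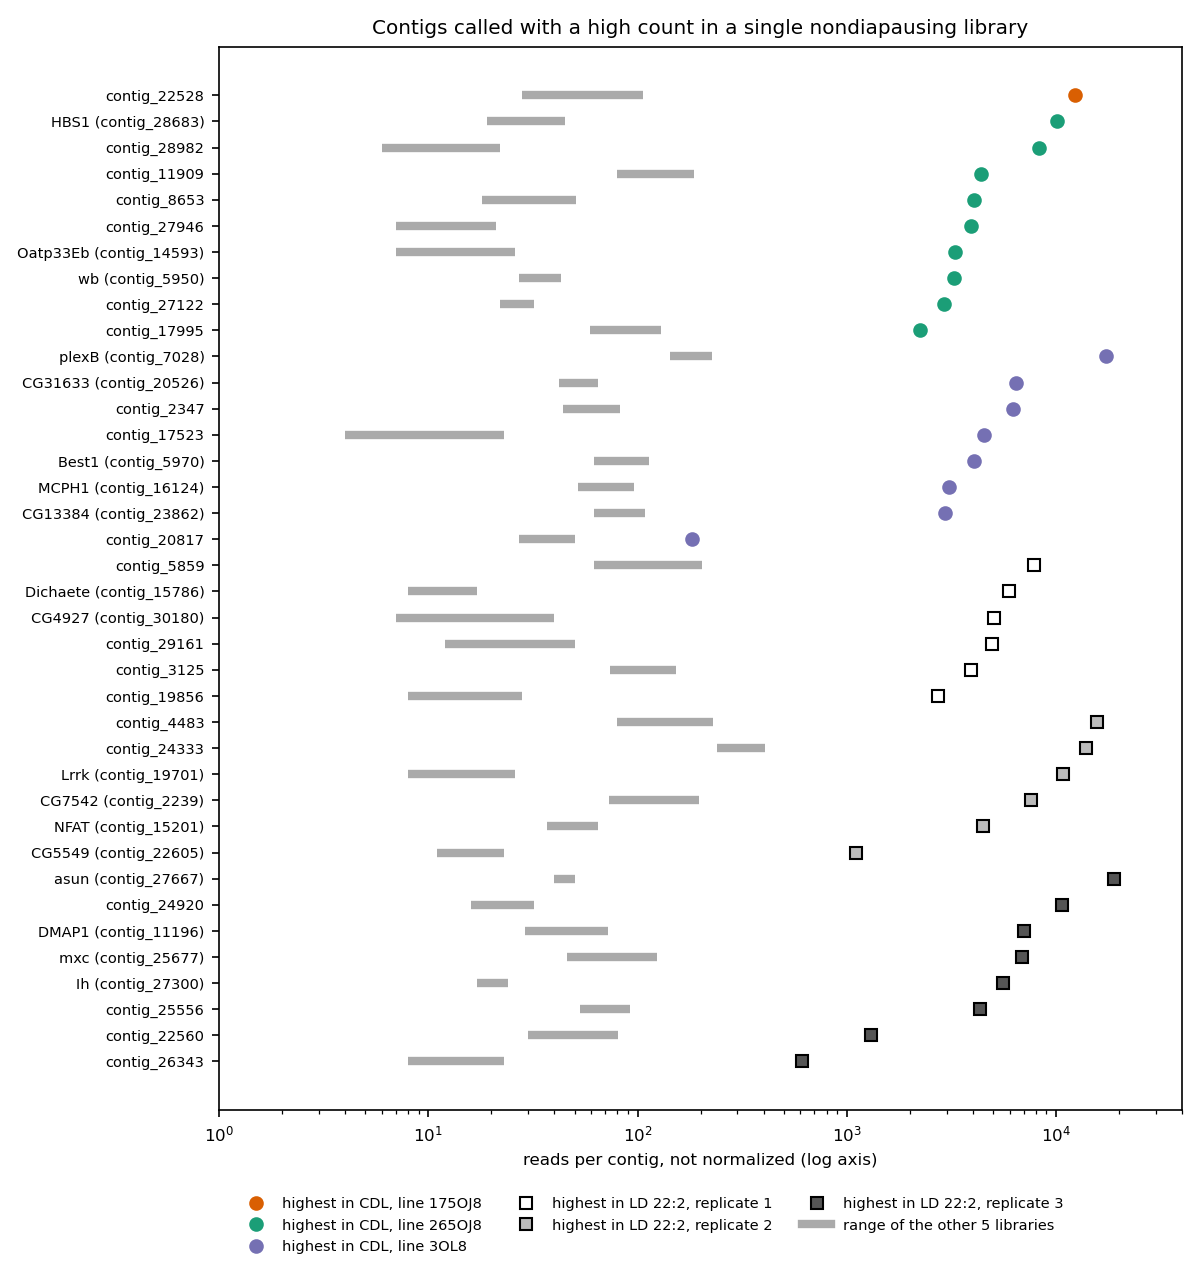
Reads per contig (log axis, not normalized) for the 38 DE contigs with a high count in a single nondiapausing library. The marker is the highest library, coloured by line for the CDL and shaded by replicate for LD 22:2, and the grey bar is the range of the other 5. In 18 contigs the highest library was at the CDL and in 20 at LD 22:2, and every marker lies clear of its bar.

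The highest library was 175OJ8 in 1, 265OJ8 in 9, and 3OL8 in 8 of the 38 contigs at the CDL, and replicate 1 in 6, replicate 2 in 6, and replicate 3 in 8 at LD 22:2. Without its highest library none of the 38 was DE, and the lowest FDR in the likelihood ratio test was 0.992. The median size of their log2 fold change without it was 0.23. Of the 38, 6 had nonoverlapping light cycles, where 12.6% of all contigs did. The quasi-likelihood test called 0 of the 38, and 0.0032% of all contigs, so nothing is read from either count. The other 62 single-library contigs were not DE and had fewer reads, with a median of 315 in the highest library against 4733 in the 38. Of all 100, 43 were highest in the 3OL8 library, which has the fewest reads. Among the DE contigs the nearest to the limit were contig_20817, set aside at 7.22 times, and contig_27167, kept at 4.70 times.

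The tables of the study list 29 contigs for nondiapausing females under neuron development, ion transport, reproduction, or metabolism. These were chosen on the same libraries, so their counts are a description and not independent evidence. Of the 29, 28 were DE here, and 18 of these 28 were single-library contigs. In neuron development 3 of 6 were single-library contigs (*Dichaete*, *plexB*, and *mxc*), 2 rose (*fz2* and *Lsp2*), and 1 was not DE (*CG8564*). In ion transport 5 of 6 were single-library contigs (*Ih*, *Best1*, *Oatp33Eb*, *CG13384*, and *CG5549*), and *CG32079* fell. In reproduction 3 of 5 were single-library contigs (*asun*, *wb*, and *MCPH1*), *fz2* rose, and *thr* fell. In metabolism 9 of 17 were single-library contigs, 4 rose, 3 fell, and *CG8564* was not DE. The further 43 contigs that the tables list for diapausing females only included 0 DE contigs here by either edgeR test, which at 0.224% of all contigs called says nothing of the list. An unadjusted likelihood ratio *P* below 0.05 was reached by 9 of the 43, or 20.9%, and by 5.58% of all contigs. The study chose the 43 with a model of all 12 libraries, and the diapausing libraries have the same arrangement of lines. The 20.9% is therefore a description. The median log2 fold change of the 43 was -0.07.

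Of the 32 DE contigs that remained, 25 fell and 7 rose at the CDL with all 6 libraries in the fit. With 1 library left out, the contigs that rose were 17 of 38 without 175OJ8, 0 of 6 without 265OJ8, and 9 of 16 without 3OL8, where the majority turned. They were 3 of 11, 2 of 23, and 6 of 19 without LD 22:2 replicates 1, 2, and 3. The size of their log2 fold change was 0.87 to 3.46. The light cycles did not overlap in 31 of the 32, against 12.6% of all contigs. That count follows in part from the choice of DE contigs. The exception was *Lsp2*. Of the 32, 10 have a symbol and 22 do not.

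**Figure D2:**
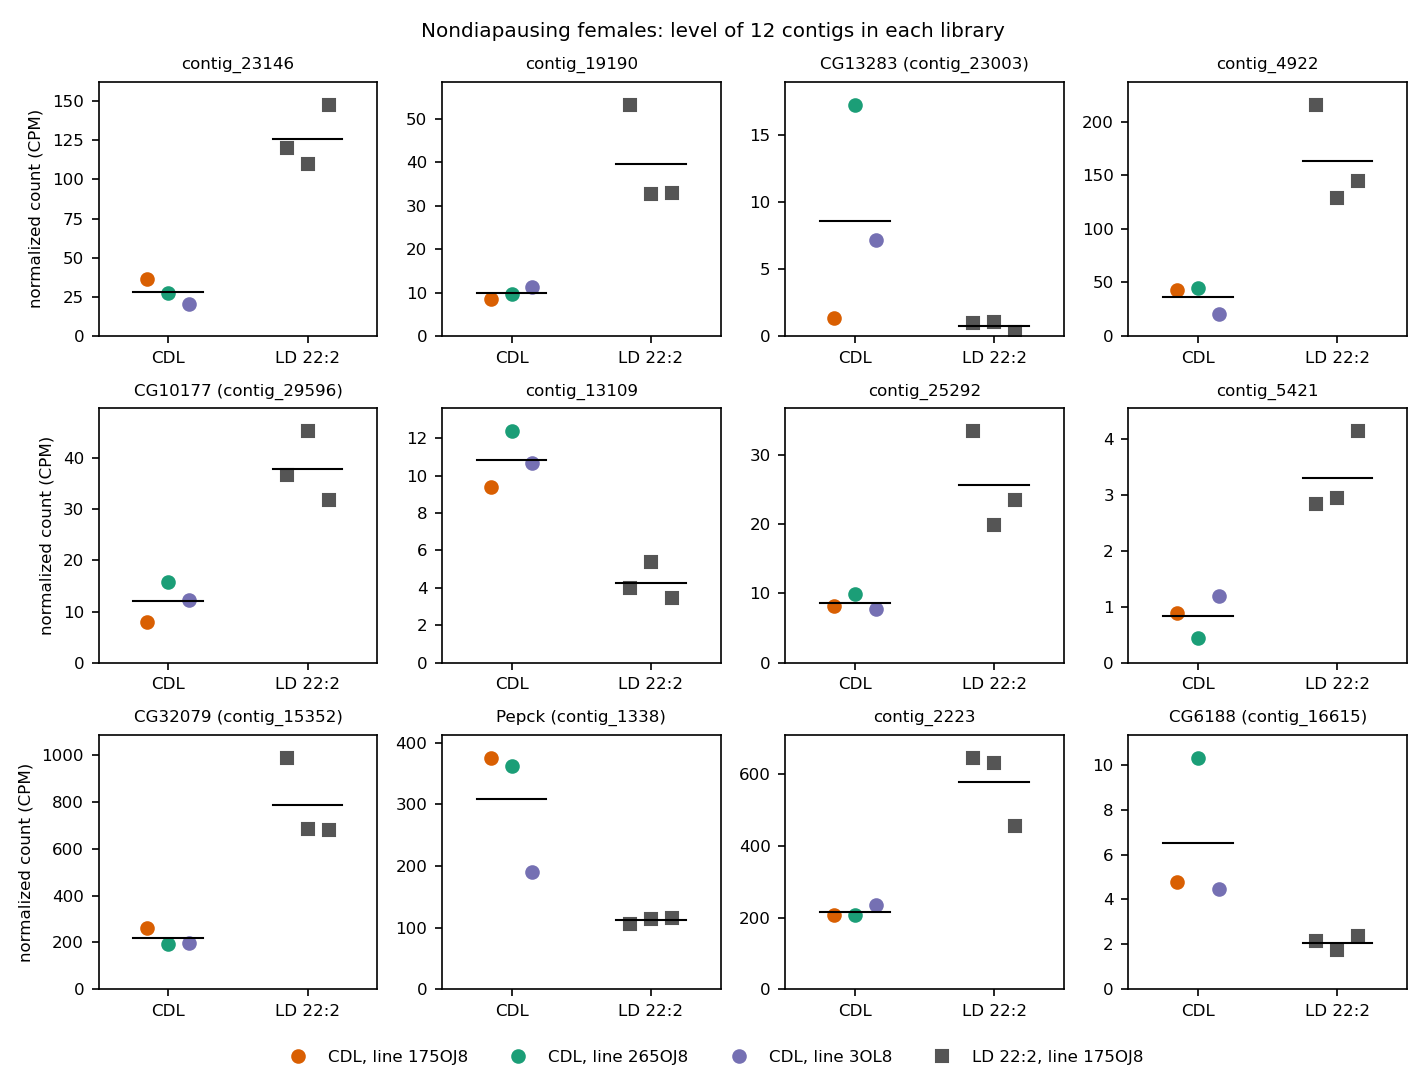
Normalized count (CPM) in each nondiapausing library for the 12 DE contigs of lowest FDR outside the single-library set whose light cycles did not overlap. Circles are CDL libraries coloured by isofemale line, squares are the 3 LD 22:2 libraries, and black lines are means of 3. The lack of overlap in every panel follows from this choice. In *CG13283* the 175OJ8 CDL library, at 1.34 CPM, sits just above the LD 22:2 libraries.

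The most clearly changed contig was contig_23146, which has no symbol. It stood at 36.6, 27.4, and 20.5 CPM in the 175OJ8, 265OJ8, and 3OL8 CDL libraries, against 120, 110, and 148 CPM in the LD 22:2 libraries. All 3 lines were below every LD 22:2 pool. On the log2 scale it changed by -2.15 ± 0.32 (SE), and its FDR was 2.76e-06 (likelihood ratio) or 0.0198 (quasi-likelihood). No other contig passed the quasi-likelihood test. The contig was DE with any of the 6 libraries left out, with a highest FDR of 0.000631. The same was true of contig_19190 and contig_4922, and of no other DE contig. Contig_19190 had 8.49, 9.72, and 11.3 CPM at the CDL against 53.3, 32.6, and 32.9 CPM under LD 22:2, which is a log2 fold change of -2.02 ± 0.34 (likelihood ratio FDR = 0.000156, quasi-likelihood FDR = 0.156). Contig_4922 had 42.7, 45.2, and 20.8 CPM at the CDL against 216, 128, and 145 CPM under LD 22:2, which is a log2 fold change of -2.16 ± 0.42 (likelihood ratio FDR = 0.00281, quasi-likelihood FDR = 0.167).

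Among contigs with a symbol that fell, *CG10177*, in the metabolism list, had 8.04, 15.7, and 12.2 CPM at the CDL against 36.7, 45.3, and 31.8 CPM at LD 22:2. The fitted log2 change was -1.66 ± 0.33 (likelihood ratio FDR = 0.00281), and the FDR was 0.0636 without the 175OJ8 library. *CG32079*, in the ion transport list and the most abundant of those that fell, had 263, 194, and 198 CPM at the CDL against 988, 684, and 682 CPM at LD 22:2. The lowest LD 22:2 pool was well above the highest CDL pool. This was a log2 change of -1.85 ± 0.41 (likelihood ratio FDR = 0.00985), and the FDR was 0.243, 0.105, and 0.194 without the 265OJ8 library, the 3OL8 library, and LD 22:2 replicate 1. Contig_2223 had 207, 207, and 236 CPM at the CDL against 646, 633, and 456 CPM at LD 22:2. The log2 change was estimated at -1.42 ± 0.32 (likelihood ratio FDR = 0.0139). It was DE only in the set without LD 22:2 replicate 3, with an FDR of 0.0634 to 0.283 in the other 5 sets of 5 libraries.

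The gene *thr* encodes a partner of separase, the protease that frees sister chromatids at cell division. It had the smallest change of the 32, with 15.9, 14.3, and 17.5 CPM at the CDL against 30.2, 26.9, and 29.5 CPM at LD 22:2. The means were 15.9 ± 1.62 CPM and 28.9 ± 1.72 CPM (SD, *n* = 3 each), and the log2 fold change was -0.87 ± 0.21 (likelihood ratio FDR = 0.022). It lost its call with any library left out, with an FDR of 0.0704 to 0.556. The gene *calypso*, whose product removes ubiquitin from histone H2A, had 4.47, 6.04, and 6.23 CPM at the CDL against 13.4, 12.5, and 10.1 CPM at LD 22:2. On the log2 scale it changed by -1.12 ± 0.26 (likelihood ratio FDR = 0.0144). The gene *slik*, a Ste20-like kinase of the cell cortex, had only 8, 16, and 5 reads at the CDL against 38, 52, and 28 under LD 22:2, which is a log2 fold change of -1.82 ± 0.45 (likelihood ratio FDR = 0.0226). Both *calypso* and *slik* were DE only in the set without LD 22:2 replicate 3, and the FDR in the other 5 sets reached 0.269 and 0.277. *CG8564* was not DE, with 39.2, 42.4, and 62.6 CPM at the CDL against 137, 94.4, and 105 CPM at LD 22:2 and a likelihood ratio FDR of 0.172. It was called lower in a fit of the 6 nondiapausing libraries alone (FDR = 0.0131), with a line term (FDR = 0.0155), and by DESeq2 (FDR = 0.00798).

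Of the 7 contigs that rose, the most abundant with nonoverlapping pools was *Pepck*, phosphoenolpyruvate carboxykinase, the entry enzyme of gluconeogenesis. It had 375, 362, and 189 CPM in the 175OJ8, 265OJ8, and 3OL8 CDL libraries against 105, 115, and 116 CPM at LD 22:2. The LD 22:2 pools lay within a narrow band, and the 3OL8 pool was nearest to them. The fitted log2 change was 1.47 ± 0.33 (likelihood ratio FDR = 0.0101, quasi-likelihood FDR = 0.156). It was DE only in the set without the 3OL8 library (FDR = 0.000243), with an FDR of 0.0922 to 0.19 in the other 5 sets. A second contig with the same blast hit, contig_1828, had 202, 205, and 129 CPM at the CDL against 49.8, 72.2, and 77.4 CPM at LD 22:2. This was a log2 change of 1.43 ± 0.37 with an FDR of 0.0621 (likelihood ratio), so it missed the threshold while its pools did not overlap.

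*CG6188*, which encodes glycine *N*-methyltransferase, had 4.77, 10.3, and 4.45 CPM at the CDL against 2.14, 1.74, and 2.35 CPM at LD 22:2, from 10 to 70 reads. The log2 change was estimated at 1.66 ± 0.40 (likelihood ratio FDR = 0.0144), and the FDR was 0.694 without the 265OJ8 library, 0.108, 0.148, and 0.0666 without LD 22:2 replicates 1, 2, and 3. Contig_13109 had 9.38, 12.4, and 10.7 CPM at the CDL against 3.99, 5.38, and 3.46 CPM under LD 22:2, which is a log2 fold change of 1.35 ± 0.28 (likelihood ratio FDR = 0.00281). It was no longer DE without the 265OJ8 library (FDR = 0.0774). *CG13283* had the largest change of the 32 and the least even lines, with 9, 117, and 24 reads in the 175OJ8, 265OJ8, and 3OL8 CDL libraries against 7, 6, and 2 at LD 22:2. The 175OJ8 pool was within a few reads of its own line at LD 22:2. The log2 fold change was 3.46 ± 0.68 (likelihood ratio FDR = 0.00281), it was 2.36 with an FDR of 0.19 without the 265OJ8 library, and without LD 22:2 replicate 3 the call was also lost at 3.08.

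*Lsp2* and *fz2* also rose, and both are far higher in diapausing females. *Lsp2* encodes larval serum protein 2, a hexameric amino acid store of the hemolymph. It had 1211, 726, and 197 CPM at the CDL against 32.1, 54.9, and 266 CPM at LD 22:2, so the 3OL8 pool was below LD 22:2 replicate 3. The log2 fold change was 2.60 ± 0.61 (likelihood ratio FDR = 0.0333, quasi-likelihood FDR = 0.381). The FDR was 5.83e-06 without LD 22:2 replicate 3 and 0.0011 without the 3OL8 library, and 0.173 to 0.392 in the other 4 sets. *Lsp2* stood at 2483 to 6232 CPM in the diapausing libraries. The Wnt receptor gene *fz2* (frizzled 2) had 56.4, 32.7, and 14.6 CPM at the CDL against 6.69, 8.85, and 14.0 CPM at LD 22:2. The order of the pools within each light cycle was that of *Lsp2*. The log2 fold change was 1.82 ± 0.42 (likelihood ratio FDR = 0.0157). It was DE in the sets without the 3OL8 library (FDR = 0.000127) and without LD 22:2 replicate 3 (FDR = 0.0147), and the FDR in the other 4 sets was 0.0897 to 0.318. The 165 other contigs at least 5 times higher in diapausing than nondiapausing libraries summed to 7948, 8528, and 7031 CPM at the CDL against 5985, 6561, and 9351 CPM at LD 22:2. LD 22:2 replicate 3 had the highest sum of the 6, and the light cycles overlapped. The sum was 40773 to 52507 CPM in diapausing libraries. The part of these contigs in the results for *Lsp2* and *fz2* was not tested.

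The 175OJ8 CDL library was compared with the other lines by giving it a group of its own in the model. A group of 1 pool has no spread of its own and was taken to vary like the other groups, so every test of it compares that pool and not the line. In all 32 contigs it lay outside the range of the LD 22:2 pools in the direction of the call, although this library also took part in choosing the 32. The light cycles did not overlap in 31 of the 32, which fixes the place of this pool there, so nothing is read from this count. The 175OJ8 library was farther from LD 22:2 than both other lines in 12 contigs, nearer than both in 10, and between them in 10. The median size of the log2 fold change over the 32 was 1.43 for the 175OJ8 library and 1.45 for 265OJ8 and 3OL8 together, both against the same LD 22:2 libraries. All of these libraries took part in choosing the 32, so the 2 medians are a description. *CG13283* was the contig that differed most by line, with a log2 fold change of 0.81 ± 0.78 for 175OJ8 and 4.0 ± 0.56 for the other lines. For *fz2* the values were 2.52 ± 0.52 and 1.28 ± 0.42, and for *Lsp2* 3.36 ± 0.83 and 1.97 ± 0.65. For *thr* they were -0.86 ± 0.31 and -0.88 ± 0.25, and for contig_23146 -1.78 ± 0.44 and -2.39 ± 0.35.

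**Figure D3:**
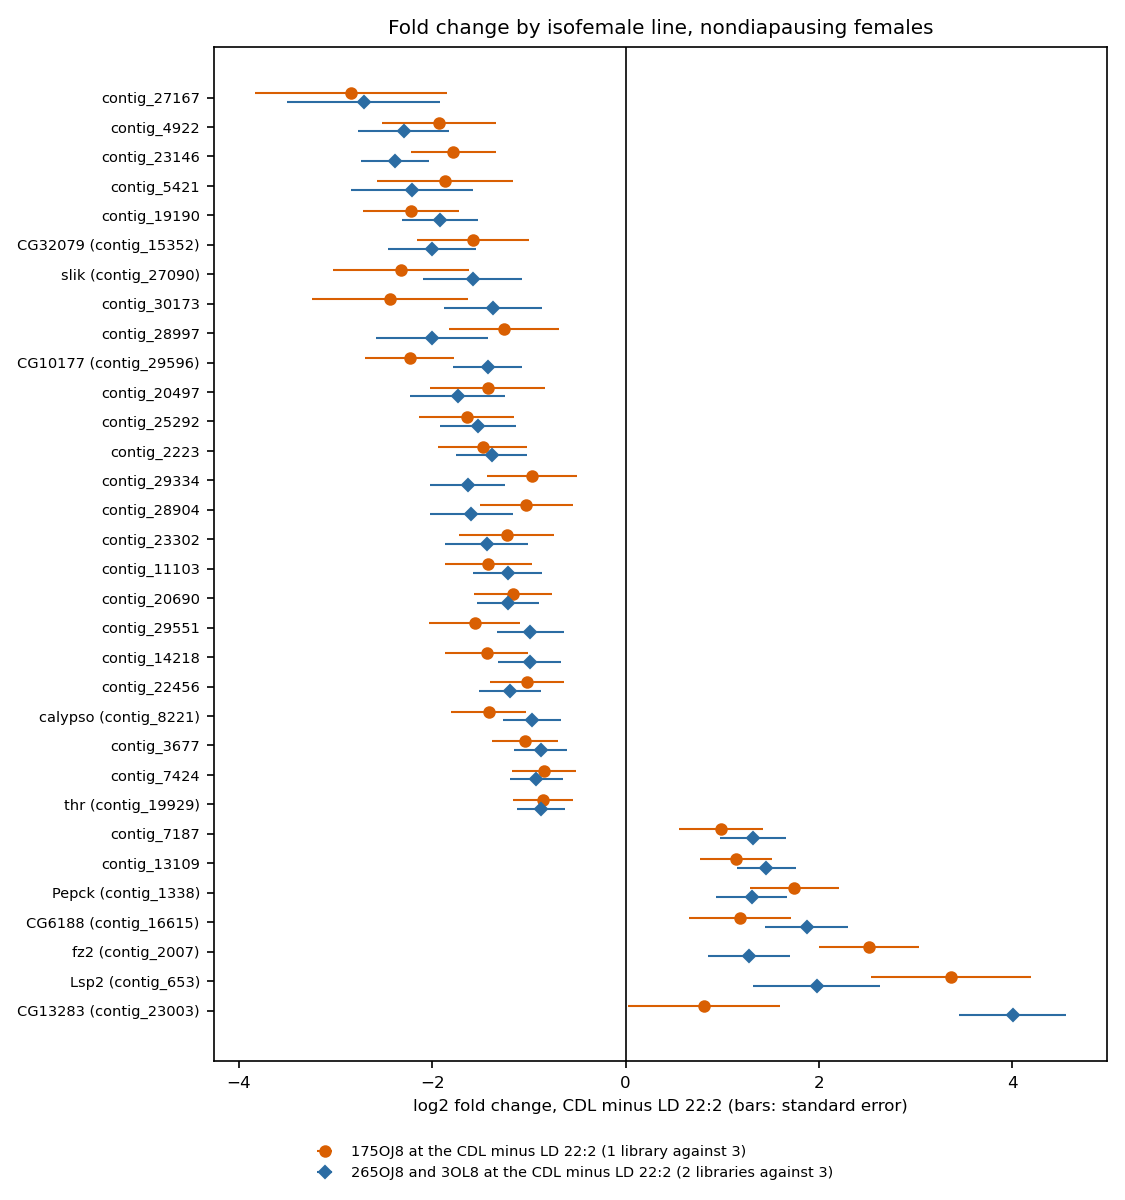
Log2 fold change against LD 22:2 (bars are SE) for the 32 DE contigs left after the single-library contigs were set aside, with the 175OJ8 CDL library as orange circles and the 265OJ8 and 3OL8 CDL libraries as blue diamonds. Both sets share the 3 LD 22:2 libraries. The 2 estimates lie on the same side of zero in every row. In the 31 contigs without overlap this is fixed by the lack of overlap, so nothing is read from it. *CG13283*, at 0.81 and 4.0, is the farthest apart.

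On its own, 1 library against 3, the 175OJ8 CDL library gave 11 DE contigs against LD 22:2, or 0.0352% of all, with 8 higher and 3 lower, and 3 of them were among the 32 (*fz2*, *Lsp2*, and *CG10177*). Of the 11, 3 were single-library contigs, and these 3 were also the calls of the quasi-likelihood test. The count was 6 without LD 22:2 replicate 1 and 5 without replicate 2. The 265OJ8 and 3OL8 libraries gave 67 DE contigs, or 0.215% of all, with 39 higher and 28 lower. Of these 67, 28 were single-library contigs and 12 were among the 32, and without the 265OJ8 library the count was 37. The quasi-likelihood test called 2 of them, contig_23146 and *CG13283*, both with an FDR of 0.0166. Only 1 contig, *CG10177*, was DE in both sets. These 2 sets differ in the number of libraries as well as in line.

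Compared directly at the CDL, 265OJ8 and 3OL8 against 175OJ8, 30 contigs differed in the likelihood ratio test, or 0.0961% of all, and 1 of these, *CG13283*, was among the 32 (log2 difference 3.19 ± 0.72, FDR = 0.0248). The quasi-likelihood test called 4, of which 3 were single-library contigs and the other was contig_28684. Of the 24 contigs that were not single-library contigs, 21 were lower in 265OJ8 and 3OL8 than in 175OJ8. In 19 of these 21 the 175OJ8 CDL pool was above every LD 22:2 pool of its own line, as in 26.2% of all contigs, and in 18 both other lines were below every LD 22:2 pool, as in 13.5% of all. The 21 were chosen on a high 175OJ8 pool and low pools of the other lines, so nothing is read from either count. Contig_12428 had 73.2 and 73.6 CPM in 265OJ8 and 3OL8 against 247 CPM in 175OJ8, with 161, 176, and 132 CPM at LD 22:2. It stood at only 2.83 to 8.13 CPM in diapausing libraries. Contig_28684 had 22.4 and 30.9 CPM in 265OJ8 and 3OL8 against 88.6 CPM in 175OJ8, with 48.6, 36.6, and 45.1 CPM at LD 22:2 and 5.08 to 5.91 CPM in diapausing libraries. Of the 21 contigs, 7 were at least 5 times higher in nondiapausing than diapausing libraries, as were 1.5% of all contigs. The 21 were called within nondiapausing libraries, where such contigs have more reads, so nothing is read from this count.

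**Figure D4:**
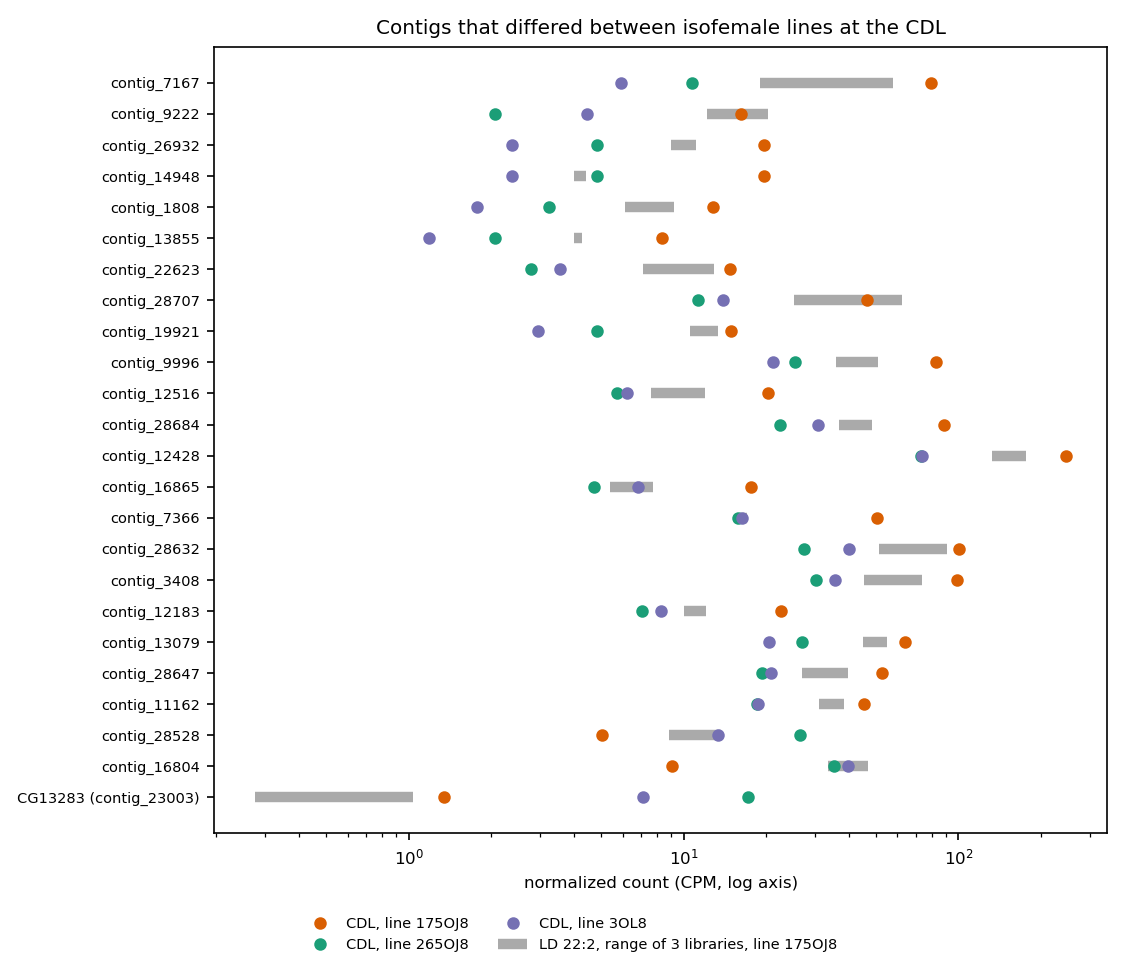
Normalized count (CPM, log axis) at the CDL in each isofemale line for the 24 contigs that differed between 265OJ8 and 3OL8 and 175OJ8 and were not single-library contigs. Grey bars are the range of the 3 LD 22:2 libraries of line 175OJ8. In 21 contigs the 265OJ8 and 3OL8 circles are left of the 175OJ8 circle, and in *CG13283* they are to its right.

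With line as a term over all 12 libraries, the term passed the likelihood ratio test in 579 contigs, 1.85% of all. Lines 265OJ8 and 3OL8 have 1 pool per reproductive state, so the term cannot tell a line from its pools. Single-library contigs made up 57 of the 579. Among the 32 the term passed in 1 contig, *CG13283* (FDR = 0.0163), and among the 38 single-library DE contigs in 16. In all 16 the highest library was at the CDL. Lines 265OJ8 and 3OL8 have pools at the CDL only, so the term is estimated from the CDL pools. A high count in a single CDL pool enters the term, and a high count in a pool of another light cycle does not. Nothing is therefore read from the 16 or from their place at the CDL. That model called 104 contigs for light cycle in nondiapausing females, and 13 of the 32 were among them. They included contig_23146 (FDR = 0.000833), contig_19190 (FDR = 3.61e-05), contig_4922 (FDR = 0.0217), *CG10177* (FDR = 9.56e-09), *Pepck* (FDR = 0.00625), *fz2* (FDR = 1.31e-05), *Lsp2* (FDR = 0.000914), and *thr* (FDR = 0.0329), all from the likelihood ratio test. *CG32079* and *CG6188* had an FDR of 0.19 and 0.263. This model takes a line difference to be the same in both reproductive states. Its light cycle effect draws on all the CDL libraries, those of 265OJ8 and 3OL8 included, adjusted by that shared line difference.

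The diapausing libraries, which share no library with this comparison, gave a second measurement of the CDL for the same 32 contigs, against LD 16:8. The lines have the same arrangement there, so line and light cycle are again partly inseparable. The spread of the diapausing libraries also entered the dispersions with which the 32 were called. The shares over all contigs given below are therefore not a matched background. Of the 25 contigs lower at the CDL in nondiapausing females, 21 had a fitted level below LD 16:8 at the CDL in diapausing females, against 46.6% of all contigs. The difference passed the likelihood ratio test in 7, all lower at the CDL, against 0.215% of all contigs. In 16 of the 25 every CDL pool was below every LD 16:8 pool, against 4.54% of all contigs, and in 2 of the 7 that rose every CDL pool was above, against 6.35%. The diapausing 175OJ8 CDL pool alone was below every LD 16:8 pool of its own line in 17 of 25, against 23.6% of all contigs. The median log2 difference of the 25 was -0.76, with 0.03 over all contigs.

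Contig_23146 had 36.8, 29.5, and 22.7 CPM in the diapausing CDL libraries of 175OJ8, 265OJ8, and 3OL8 against 179, 99.8, and 133 CPM at LD 16:8. These levels are close to those of nondiapausing females, and its log2 difference was -2.21 ± 0.32 (likelihood ratio FDR = 5.33e-07, quasi-likelihood FDR = 0.0148). *CG10177* had 10.2, 24.3, and 25.6 CPM against 71.7, 95.2, and 58.3 CPM, a log2 difference of -1.91 ± 0.32 (likelihood ratio FDR = 5.59e-05, quasi-likelihood FDR = 0.0542). The other 5 were contig_19190, contig_4922, contig_25292, contig_3677, and contig_29334, and in all 7 the 175OJ8 CDL pool was below its own line in the longer and in the shorter cycle. The 7 were called lower at the CDL in both states with these pools included, so nothing is read from that count. The gene *thr* had 11.0, 14.2, and 16.0 CPM against 24.6, 20.7, and 21.0 CPM, without overlap, and a likelihood ratio FDR of 0.182. Of the 7 contigs that rose, 4 had a fitted level above LD 16:8 in diapausing females and 0 were DE in either edgeR test. Over all contigs 46.6% had a fitted level below LD 16:8 and 0.403% were DE in the likelihood ratio test. Nothing is therefore read from either count of the 7. An unadjusted likelihood ratio *P* below 0.05 was reached by 2 of the 7. *Pepck* had 343, 329, and 370 CPM at the CDL against 155, 203, and 160 CPM at LD 16:8, without overlap, and a likelihood ratio FDR of 0.2. The interaction of diapause state with light cycle passed the likelihood ratio test in 21 of the 32 and in 20 of the 38 single-library contigs, with 1.07% of all contigs passing it. The interaction contains the nondiapausing difference by which these contigs were chosen, so nothing is read from these counts. *Lsp2* and *fz2* overlapped between the CDL and LD 16:8, with log2 differences of -0.29 ± 0.61 and -0.08 ± 0.40. Whether the 6 CDL pools were also handled apart from the other 6 is not given in the sources used here.

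**Figure D5:**
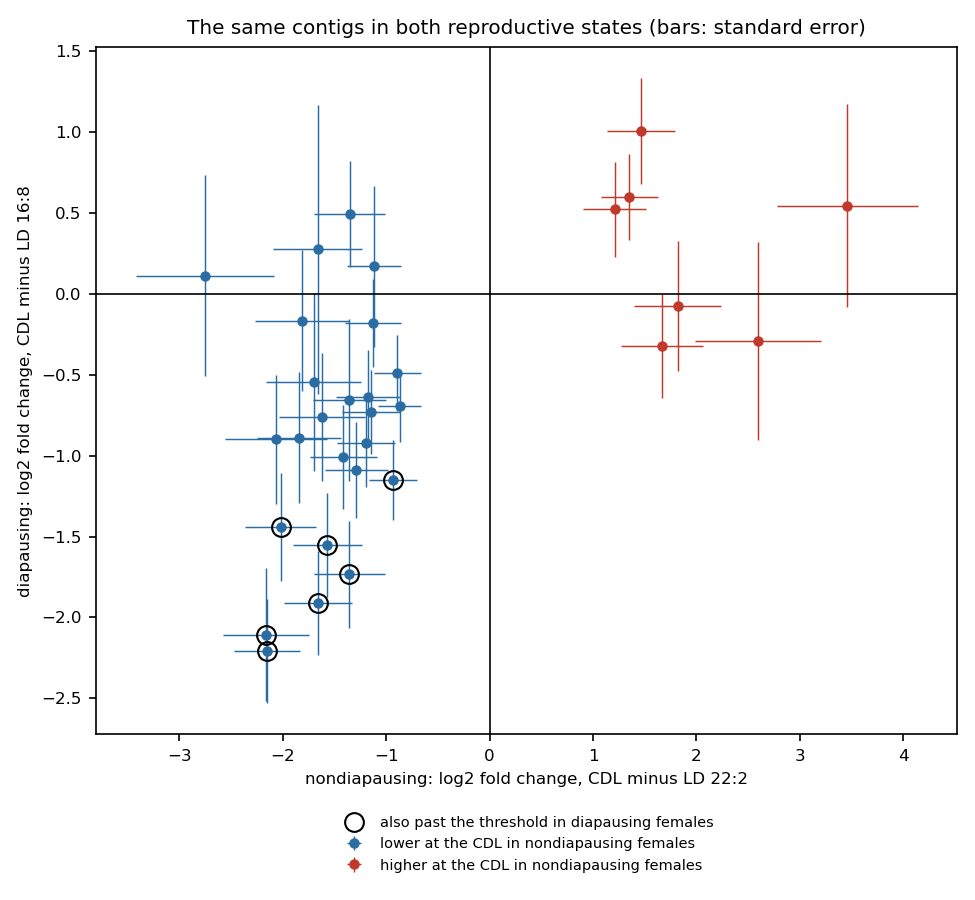
Log2 fold change of the CDL against LD 22:2 in nondiapausing females (horizontal axis) and against LD 16:8 in diapausing females (vertical axis) for the 32 DE contigs left after the single-library contigs were set aside, with SE bars. Blue points fell and red points rose at the CDL in nondiapausing females, and rings mark the 7 that were also DE in diapausing females. Of the blue points 21 of 25 are below zero on the vertical axis, with contig_23146 lowest at -2.21.

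Several contigs often share a blast hit, and such contigs may be pieces of a transcript, splice forms, or related genes. Among the 38 single-library DE contigs, 21 had other contigs with the same hit and a mean of at least 1 CPM, 69 in all. The median size of log2 fold change was 0.21 in those 69 and 4.82 in the 21. It was 0.20 over all contigs, and the 21 were chosen on this change. None of the 69 was DE in the likelihood ratio test, which at 0.224% of all contigs called says nothing of them. Of the 69, 38 had the sign of the called contig, and 2 of those 38 had an unadjusted *P* below 0.05. The 8 other contigs with the hit of *plexB* had log2 fold changes of -0.48 to 0.26, and the 9 with the hit of *Lrrk* -0.48 to 1.26. Of the 32 remaining DE contigs, 16 had other contigs with the same hit, 31 in all. Here too 0 of the 31 were DE in the likelihood ratio test, which again says nothing at that share. The median size was 0.25 against 1.44 in the 16, which were also chosen on their change, and 18 of the 31 had the same sign. Only the second *Pepck* contig, at 1.43, had the same sign and an unadjusted *P* below 0.05. For *CG6188* the other contig had a log2 fold change of 0.61 ± 0.35, for *calypso* -0.12 ± 0.36, and for *thr* 0.30 ± 0.36.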

How the data were processed

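Each library has a deposited table of raw counts, which the authors did not normalize. The authors trimmed and error-corrected SOLiD paired-end reads, mapped them with CLC to a *de novo* transcriptome from which contigs with nonarthropod hits had been dropped, and used HTSeq to count uniquely mapped reads per contig. Counting strand was not given in the sources used here. All 12 libraries were analyzed in R 4.3.3 with edgeR 4.0.16 (TMM, Cox-Reid common, trended, and tagwise dispersions, GLM of 4 groups, likelihood ratio tests, prior count 0.125, no filter), and FDR is the Benjamini and Hochberg value over 31233 contigs. The common, trended, and tagwise steps and the prior count were chosen here. Common dispersion came to 0.0564 (biological coefficient of variation 0.237). The tests for lines used 5 groups, or line as a term. Scripts were tested on simulated data.

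The contigs named are those that the tables of the study list for nondiapausing females, the 12 of lowest FDR that were not single-library contigs and did not overlap, the 6 single-library contigs of lowest FDR, the contigs called by the quasi-likelihood test, and contigs sharing their hits. Contigs of the line comparisons, of the single-library limit, and those DE in diapausing females were named after their values were seen. Contigs and lists were chosen with earlier results of these data known. The hits of 15189 kinds were matched to 0 of 15263 reference genes, so lists of clock, heat shock, insulin, and eggshell genes were not analysed here. Alternatives were the quasi-likelihood test, DESeq2 1.42.0, RLE normalization or library totals alone, filterByExpr (minimum count 10), estimateDisp, the 6 libraries alone, a line term, a prior count of 2, other single-library limits, and each library left out.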

Additional observations from a re-analysis of the deposited data

Results flagged for a closer look

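The interaction of diapause state with light cycle passed the edgeR likelihood ratio test (FDR 0.05) in 28 of the contigs named here. These contigs were chosen on the nondiapausing difference, here or by the study, which is part of this value, so their number is a description. The value given is the log2 fold change of LD 16:8 over the CDL in diapausing females minus that of the CDL over LD 22:2 in nondiapausing females. A contig that is lowest at the CDL in both states has a positive value. The LD 22:2 and LD 16:8 libraries are all of line 175OJ8, so a difference of the other lines at the CDL also enters this value. It cannot be told apart from light cycle here. Of the 28, 13 were not single-library contigs. The values were 4.36 for contig_23146, 3.46 for contig_19190, 4.27 for contig_4922, 3.57 for *CG10177*, 3.12 for contig_25292, 2.97 for contig_5421, 2.74 for *CG32079*, 2.42 for contig_2223, 2.42 for *CG8564*, and 1.56 for *thr*. They were -4.01 for *CG13283*, -1.95 for contig_13109, and -2.47 for *Pepck*. The quasi-likelihood test called 11 of these 13, all but *CG13283* (FDR = 0.126) and contig_5421 (FDR = 0.0583). The 13 had already passed the likelihood ratio test on the same counts, so nothing is read from the number 11. The other 15 were single-library contigs, of which the quasi-likelihood test called 0. Their values were 8.37 for *Lrrk*, 7.26 for *Dichaete*, 7.0 for *asun*, 6.15 for *Ih*, 6.09 for *CG4927*, 5.63 for *DMAP1*, 5.22 for contig_29161, 4.90 for *NFAT*, and 4.62 for *mxc*. They were -6.68 for *HBS1*, -6.65 for contig_28982, -5.83 for *plexB*, -5.80 for *CG31633*, -5.08 for *Best1*, and -4.99 for *wb*.

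Between lines at the CDL, 265OJ8 and 3OL8 minus 175OJ8, 2 of the named contigs differed in the likelihood ratio test. The log2 difference was 3.19 for *CG13283* (FDR = 0.0248) and 5.91 for the single-library contig of *wb* (FDR = 0.0427).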

How the results depend on the processing

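No paired analysis was possible because the CDL libraries carry line names and the LD 22:2 libraries carry numbers, so that the groups share no replicate. The quasi-likelihood test called 1 contig in the light cycle comparison both with and without single-library contigs, 3 for the 175OJ8 library, 2 for 265OJ8 and 3OL8, and 4 between lines. A fit of the 6 libraries alone called 146 contigs, 103 that were not single-library contigs, 65 for 175OJ8, 262 for 265OJ8 and 3OL8, and 98 between lines. DESeq2 called 30 contigs, and left 28528 without an adjusted *P*, among them 25 of the 32. A line term gave 95 contigs that were not single-library contigs, and with the quasi-likelihood test 8 contigs, 7 of them not single-library contigs. Removing the single-library contigs before the fit, chosen after seeing the data, left 18, all among the 32. The rest of the 32 lost the call, *slik* and *Lsp2* among them. Leaving out each library in turn gave 17 to 66 contigs, 6 to 38 that were not single-library contigs, 5 to 11 for 175OJ8, and 37 to 85 for 265OJ8 and 3OL8. The other normalizations, the filter, estimateDisp, and the other single-library limits changed these counts by less than 1.5 times. Without their highest library 17 of the 38 single-library DE contigs changed sign, 8 of them among the 20 that are named, and none had an FDR below 0.05. Over the 6 sets of 5 libraries the log2 fold change was -0.051 to 6.19 for *Oatp33Eb*, -5.36 to 0.080 for *NFAT*, -0.57 to 5.22 for *MCPH1*, -0.26 to 6.87 for *CG31633*, -4.95 to 0.019 for *CG5549*, -0.10 to 5.26 for *CG13384*, -7.23 to 0.26 for *asun*, and -0.47 to 8.02 for contig_28982. Of 596 values over the alternatives for 38 named contigs, 375 kept direction and side of the threshold, 210 lost the call, 3 gained it (*CG8564* each time), and 8 were these changes of sign. The cause of these changes was not tested. The 3OL8 library, with the fewest reads, limits contigs of low count: *slik* had 5 reads there and contig_5421 had 4.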
